A study of Mus musculus with 8 samples.

Results

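RNA levels of 8 Krueppel-like factors (Klf2, Klf3, Klf4, Klf6, Klf7, Klf9, Klf10 and Klf13) were examined in mouse peritoneal macrophages treated with the small molecule C498, with lipopolysaccharide (LPS), or with both. The genes were taken by symbol from a table of 55801 genes, and all 8 were among the 12189 genes tested, those with a mean TPM (a level corrected for gene length and scaled to one total in every sample) of at least 1. The study asked whether C498 alters the inflammatory response of these cells. There were 4 groups of 2 samples, all of them elicited with thioglycollate, which recruits monocyte-derived macrophages into the peritoneum; the study's methods give its mice as male C57BL/6 animals of 6 to 8 weeks. The NC group received vehicle, and the C498 group received 15 μM of the compound. In the LPS group, vehicle for 0.5 h was followed by 100 ng/ml LPS for 4 h. In the C498+LPS group, 15 μM C498 for 0.5 h preceded the same LPS challenge. The sources used here do not give the collection time of the NC and C498 samples, so time in culture and LPS cannot be told apart in comparisons of samples with and without LPS, and the duration of C498 alone is unknown. The sources used here do not say whether the 2 samples of a group came from separate animals or cultures, so p-values measure only the spread between these samples, which may be technical.

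Krueppel-like factors are zinc finger transcription factors that bind GC-rich and CACCC-containing DNA. Members related to Klf2, Klf4, Klf6 and Klf7 largely act as activators, Klf3 recruits the corepressor CtBP, and Klf9, Klf10 and Klf13 can recruit the Sin3 corepressor. In macrophages, KLF2 and KLF4 are known for restraining inflammatory gene expression, whereas KLF6 is known for supporting it.

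The clearest result concerned Klf4, which rose 6.61-fold with C498 alone and was 2.79-fold higher in C498+LPS than in LPS samples. Klf9 rose 2.82-fold with C498 alone. LPS alone raised Klf6 1.99-fold and lowered Klf10 to 0.440 of its vehicle level, and Klf10 was 2.29-fold higher in C498+LPS than in LPS samples. These folds are ratios of mean TPM levels, and a change was called when limma's fold change on the log2(TPM + 1) scale was at least 2 and the adjusted p at most 0.05. Klf2, Klf3, Klf7 and Klf13 passed these criteria in none of the 5 comparisons.

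The promoters of Klf4 and Klf9, the members called with C498 alone, and of Klf2, whose induction by shear stress runs through MEF2 factors, are shown from RefSeq on GRCm38.p6, 5′ to 3′ on the strand of each gene. They end just before the first annotated base and lie at chr4:55532476-55532725 on the minus strand (Klf4), chr19:23140976-23141225 on the plus strand (Klf9) and chr8:72318812-72319032 on the plus strand (Klf2). Capitals mark matches to the cAMP response element core TGACG on either strand, the AP-1 motif TGANTCA, or the MEF2 consensus.
Klf4: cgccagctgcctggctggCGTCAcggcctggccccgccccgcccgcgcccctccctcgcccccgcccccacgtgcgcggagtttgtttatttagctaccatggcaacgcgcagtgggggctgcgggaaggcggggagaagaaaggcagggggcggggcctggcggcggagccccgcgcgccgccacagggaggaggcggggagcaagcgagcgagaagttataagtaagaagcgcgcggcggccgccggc
Klf9: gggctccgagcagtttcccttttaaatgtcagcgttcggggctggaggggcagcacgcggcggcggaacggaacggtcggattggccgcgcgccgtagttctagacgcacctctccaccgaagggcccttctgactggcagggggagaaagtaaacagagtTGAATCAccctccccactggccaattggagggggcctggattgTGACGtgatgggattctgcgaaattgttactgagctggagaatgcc
Klf2: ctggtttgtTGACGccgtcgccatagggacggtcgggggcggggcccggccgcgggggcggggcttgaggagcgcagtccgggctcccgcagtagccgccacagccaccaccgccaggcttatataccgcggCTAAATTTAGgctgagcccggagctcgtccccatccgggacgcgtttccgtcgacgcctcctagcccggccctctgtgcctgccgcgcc

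The Klf4 window held TGACG on the opposite strand, printed as CGTCA, at position -232 from the RefSeq start. In Klf9, TGANTCA stood at -89 and TGACG at -46. In Klf2, TGACG stood at -241 and the MEF2 consensus at -118. Over windows from 250 bases before to 50 after the start, RefSeq sequence was found for 7 of the 8 members, Klf10 being the exception. TGACG was present in 5 of these 7 windows, against 20.8% of 32817 mouse promoters, and the Sp/KLF-type GC box GGGCGG in 6 of 7, against 35.6%. CACCC was found in 5 of 7 windows, against 57.5% of all promoters. TGANTCA (7.81% of promoters) and the MEF2 consensus (3.19%) each occurred in 1 member window. The full palindrome TGACGTCA, which contains TGACG, as well as TATAAA, the NF-kB consensus and the SRF CArG box, had no match in the 7 windows, against 1.79%, 13.6%, 8.46% and 1.63% of all promoters. Both strands were searched for every motif, and these letter matches are descriptions, not evidence of binding.

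Library checks bear on how the levels can be read. All 8 macrophage markers were present, with summed levels of 20099 to 20590 TPM in NC, 17938 to 18472 in LPS, 15939 to 16075 in C498 and 12420 to 14208 in C498+LPS samples. These sums did not overlap between groups and were lower with C498. They were mostly Lyz2 (means of 15990 TPM in NC, 13220 in LPS, 11500 in C498 and 8536 in C498+LPS samples). Cd68, the next highest, had 2791, 2489, 2839 and 2314 TPM in that order. Cd14 was called higher in C498 vs NC, and none of the 8 was called lower there or in C498+LPS vs LPS. By limma's adjusted p alone, 2 of the 8 were lower and 1 higher in C498 vs NC (754 and 1132 of the 12189 genes). In C498+LPS vs LPS, 4 were lower and 1 higher (938 and 1107 of the 12189 genes). The 5 fibroblast markers (Col1a1, Col1a2, Col3a1, Dcn and Pdgfra) were all detected and summed to 150.2 to 192.3 TPM in NC, 175.8 to 200.5 in LPS, 633.2 to 750.0 in C498 and 618.0 to 910.5 in C498+LPS samples. Thus 5 of 5 were called higher in C498 vs NC (5.64% of all tested genes) and 4 of 5 in C498+LPS vs LPS (5.39%), in the same comparisons as Klf4. The part of these macrophage and fibroblast markers in the changes of the members was not tested, and in bulk RNA fewer cells of a type cannot be told apart from less RNA per cell. The 5 neutrophil markers summed to 82.3 to 134.7 TPM in NC, 97.3 to 123.0 in LPS, 52.6 to 55.8 in C498 and 72.1 to 81.6 in C498+LPS samples. Most of each sum was S100a8, with means of 102.1, 102.7, 51.1 and 75.3 TPM in that order. S100a9 was at 0 in every NC and LPS sample, and Ly6g was above 0 only in C498 replicate 2. Of the 3 tested, 1 (Retnlg) was called lower in C498 vs NC and in C498+LPS vs LPS. With means of 0.905 TPM in C498 and 0.54 TPM in C498+LPS samples, Retnlg passed the filter on mean level only through the groups without C498. Its calls therefore do not count as support. The 4 mesothelial markers summed to 2.09 to 2.62 TPM in NC, 1.96 to 2.63 in LPS, 6.51 to 9.03 in C498 and 6.06 to 11.7 in C498+LPS samples. Samples with and without C498 thus did not overlap for these markers either, and 1 of the 3 tested (Upk1b) was called higher in C498+LPS vs LPS. With means of 0.645 TPM in NC and 0.805 TPM in LPS samples, Upk1b passed the filter on mean level only through the groups given C498. Its call therefore does not count as support. The part of the neutrophil and mesothelial markers in the results was not tested. Markers of T cells (6), B cells (5), endothelial cells (5), eosinophils (4, with Epx at 0 in every sample) and mast cells (4) never summed above 15.8 TPM in any sample. The vehicle samples stood apart in another way: in NC, replicate 2 fell short of replicate 1 increasingly with gene length.

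**Figure D1:**
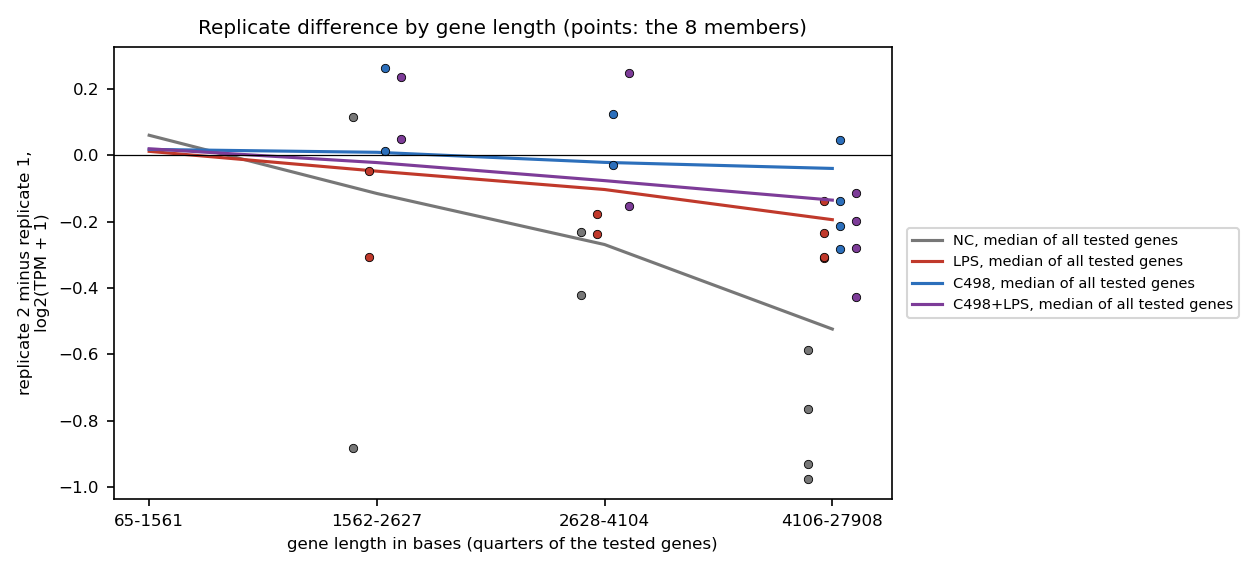
Difference between replicate 2 and replicate 1 on the log2(TPM + 1) scale (vertical axis) over 4 equal classes of gene length in bases (horizontal axis); lines are medians of all tested genes in each of the 4 groups, and points are the 8 Krueppel-like factors in the same colours. In NC the median runs from 0.06 in the shortest to -0.52 in the longest class, while in C498 it ends at -0.04.

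In the longest class of genes (4106 to 27908 bases), the median log2 difference of replicate 2 from replicate 1 was -0.52 in NC, -0.19 in LPS, -0.04 in C498 and -0.14 in C498+LPS samples. Klf6, Klf7, Klf9 and Klf13 belong to that class, and their differences in NC were -0.77, -0.98, -0.93 and -0.59. Klf3, at 1562 bases, differed by -0.88 in NC although its length class had a median of -0.12. Klf2 and Klf4 differed by only 0.12 and -0.23. Klf10 differed by -0.42. Comparisons of Klf3, Klf6, Klf7, Klf9, Klf10 and Klf13 with NC are therefore also given without each NC replicate.

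**Figure D2:**
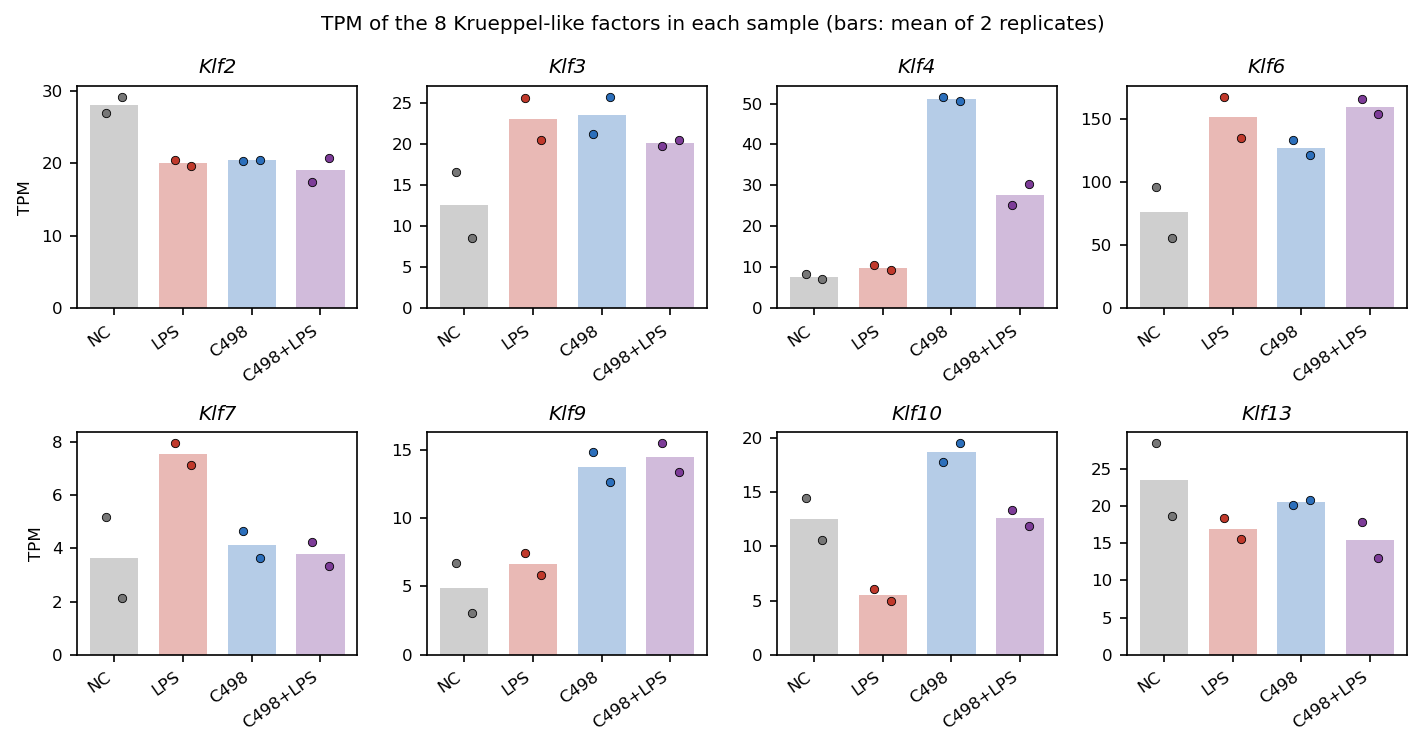
TPM levels of the 8 Krueppel-like factors in the NC, LPS, C498 and C498+LPS groups (points, single samples; bars, means of 2; 1 panel per gene, each with its own vertical axis). Klf4 lies between 50.7 and 51.7 TPM in C498 and between 7.05 and 8.44 TPM in NC samples, and Klf10 is lowest in the LPS samples.

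Klf4 (ENSMUSG00000003032, chr4:55527143-55532466, minus strand, GRCm38) encodes a factor of monocyte differentiation and alternative macrophage activation. Its TPM levels were 8.44 and 7.05 in NC, 10.6 and 9.27 in LPS, 51.7 and 50.7 in C498, and 25.3 and 30.2 in C498+LPS samples. Both C498 samples were the highest, both C498+LPS samples came next, and no groups overlapped. In C498 vs NC, where limma called 5.64% of tested genes higher and 1.36% lower, Klf4 rose by a log2 change of 2.58 (95% interval 2.23 to 2.93, adjusted p = 0.000152). Among LPS-treated samples (C498+LPS vs LPS), with 5.39% of genes called higher and 2.18% lower, it was higher by 1.39 (1.04 to 1.75, adjusted p = 0.00174). Both calls held when any single sample was left out and under every other alternative setting tried. The lowest log2 changes among these alternatives were 2.46 and 1.27.

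The difference made by LPS had opposite signs without and with the compound. For LPS vs NC it was 0.32 (-0.03 to 0.68, limma adjusted p = 0.149). With C498 present (C498+LPS vs C498), with background calls of 2.52% higher and 3.13% lower, the level was 0.543 of that with C498 alone. This log2 difference of -0.86 (-1.22 to -0.51, limma adjusted p = 0.0109) passed the p threshold but not the 2-fold criterion. It did not pass the p threshold under every alternative setting, where it ranged from -0.99 to -0.61. The interaction, that is, the LPS effect with C498 minus the LPS effect without it, was -1.19 (-1.69 to -0.69). Its adjusted p in limma was 0.0826, in a comparison where 0.0738% of genes were called higher and 0.394% lower. The interaction passed both thresholds after quantile normalization (-1.31, adjusted p = 0.0434) and after centring within bins of gene length (-1.17, adjusted p = 0.0293). It stayed uncalled in the other 14 of 16 alternatives, with adjusted p of up to 0.386.

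Klf2 (ENSMUSG00000055148, chr8:72319033-72321656, plus strand) encodes the factor of endothelial and T cell quiescence that shares targets with KLF4. The levels in TPM were 26.9 and 29.2 in NC, 20.4 and 19.7 in LPS, 20.3 and 20.5 in C498, and 17.4 and 20.7 in C498+LPS samples. Both NC samples lay above all others, and the 3 treated groups overlapped. With LPS the level was 0.715 of vehicle, a log2 difference of -0.46 (LPS vs NC, -0.76 to -0.16, limma adjusted p = 0.032) that passed the p threshold but was under 2-fold. It no longer passed after median centring (-0.30, adjusted p = 0.243), quantile normalization (-0.31, adjusted p = 0.16) or centring by length (-0.23, adjusted p = 0.197), with only the compared groups fitted, or without NC replicate 2 or any single LPS or C498 replicate. In C498 vs NC it was -0.44 (-0.74 to -0.14, limma adjusted p = 0.0596). The differences of -0.10 against C498 and -0.07 against LPS in C498+LPS samples had adjusted p of 0.649 and 0.755 in limma, and both changed sign when 1 sample was left out, the first also after median centring, quantile normalization or centring by length. The level of Klf4 exceeded that of Klf2 in both groups given C498 and was below it in NC and LPS.

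Klf6 (ENSMUSG00000000078, chr13:5861482-5870394, plus strand), a factor that cooperates with NF-kB in macrophages, had the highest level of the 8 genes in every sample. It was measured at 96.0 and 56.1 TPM in NC, 167.8 and 135.1 in LPS, 133.4 and 121.3 in C498, and 166.1 and 153.6 in C498+LPS samples. Both NC samples were below all others, and the NC replicates were the farthest apart. Klf6 rose in LPS vs NC, where 5.55% of genes were called higher and 6.68% lower, by 1.03 on the log2 scale (0.47 to 1.58, limma adjusted p = 0.0163). The change was 1.41 without NC replicate 1. The call was lost without NC replicate 2 (0.64), LPS replicate 1 (0.87, adjusted p = 0.112) or LPS replicate 2 (adjusted p = 0.0527), and also with no filter on low values, after quantile normalization and with only the compared groups fitted. In C498 vs NC the log2 difference was 0.79 (0.23 to 1.34, limma adjusted p = 0.0647). It was called without NC replicate 1 (1.17, adjusted p = 0.00824) and was 0.40 without NC replicate 2 (adjusted p = 0.146). With C498 present, LPS gave a difference of 0.33 (adjusted p = 0.387), and C498+LPS differed from LPS by 0.08 (adjusted p = 0.857).

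Klf7 (ENSMUSG00000025959, chr1:64029447-64122282, minus strand), the closest relative of Klf6 and known from neurons, had the lowest mean level of the 8 genes. Levels were 5.17 and 2.14 TPM in NC, 7.96 and 7.15 in LPS, 4.64 and 3.64 in C498, and 4.25 and 3.33 in C498+LPS samples. Both LPS samples were above all others, and the remaining groups overlapped. The 2.07-fold ratio of LPS to NC corresponded to a log2 difference of 0.96 (0.20 to 1.72, limma adjusted p = 0.0625). It was called without NC replicate 1 (1.44, adjusted p = 0.00816) and was 0.47 without NC replicate 2 (adjusted p = 0.157). It also passed both thresholds after median centring (1.13) and quantile normalization (1.17). The level in C498+LPS was 0.502 of that in LPS, a log2 difference of -0.84 (-1.60 to -0.08, adjusted p = 0.127) that was called when genes were centred by length (-1.01, adjusted p = 0.0049). The other differences of Klf7 were 0.22 for C498 vs NC (limma adjusted p = 0.68) and -0.10 for C498+LPS vs C498 (adjusted p = 0.866), and both changed sign after centring by length. Leaving out NC replicate 1 gave 0.70 for the former and leaving out NC replicate 2 gave -0.27, neither of them called.

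Klf3 (ENSMUSG00000029178, chr5:64803388-64832901, plus strand) encodes the CtBP-dependent repressor. The samples had 16.6 and 8.54 TPM in NC, 25.5 and 20.5 in LPS, 21.2 and 25.7 in C498, and 19.7 and 20.4 in C498+LPS samples. Both NC samples were the lowest, and they differed from each other more than the replicates of any other group. Log2 differences from NC were 0.88 with LPS (0.23 to 1.54, limma adjusted p = 0.0511) and 0.91 with C498 (0.26 to 1.57, adjusted p = 0.0689), and these comparisons share the NC samples. Without NC replicate 1 both were called (1.32, adjusted p = 0.00594, and 1.35, adjusted p = 0.00914), and without NC replicate 2 they were 0.44 and 0.47 and not called. The difference from NC with LPS was also called after median centring (1.05), quantile normalization (1.00) and centring by length (1.14). Between groups given C498 or LPS, Klf3 differed by -0.21 between C498+LPS and C498 and by -0.18 between C498+LPS and LPS (limma adjusted p = 0.655 and 0.721), the first changing sign after median centring.

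Klf9 (ENSMUSG00000033863, chr19:23141226-23168134, plus strand) is a glucocorticoid-inducible member of the Sin3-binding branch. TPM values were 6.70 and 3.04 in NC, 7.42 and 5.81 in LPS, 14.8 and 12.6 in C498, and 15.5 and 13.4 in C498+LPS samples. The 4 samples given C498 lay above the 4 without it, whereas NC overlapped LPS and C498 overlapped C498+LPS. In C498 vs NC, Klf9 rose by 1.40 on the log2 scale (0.69 to 2.10, limma adjusted p = 0.0239). The change was 1.86 without NC replicate 1 and still called. It was 0.93 and under 2-fold without NC replicate 2, and the call was also lost without any single LPS, C498 or C498+LPS replicate, with no filter on low values or with only the compared groups fitted, with adjusted p of up to 0.159. Under LPS (C498+LPS vs LPS) the log2 difference was 1.02 (0.31 to 1.73, adjusted p = 0.0601). It was called without NC replicate 1 (adjusted p = 0.0124), without NC replicate 2 (adjusted p = 0.012) and when only the compared groups were fitted (adjusted p = 0.0384). LPS itself gave differences of 0.44 without and 0.07 with C498 (adjusted p = 0.316 and 0.91), the former being 0.91 without NC replicate 1 and -0.02 without NC replicate 2, both uncalled.

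Klf10 (ENSMUSG00000037465, chr15:38291463-38300706, minus strand), first known as a TGF-beta inducible early gene, was the only member called lower. Its TPM levels were 14.46 and 10.54 in NC, 6.04 and 4.97 in LPS, 17.8 and 19.5 in C498, and 13.3 and 11.9 in C498+LPS samples. Both LPS samples were the lowest and both C498 samples the highest, with the C498+LPS samples inside the range of NC. With LPS alone, Klf10 fell by 1.04 on the log2 scale (95% interval -1.48 to -0.60, limma adjusted p = 0.00641). The call held without NC replicate 2 (-1.25). The change dropped under 2-fold without NC replicate 1 (-0.83), without LPS replicate 2 (-0.92), and after median centring (-0.87), quantile normalization (-0.83) or centring by length (-0.81), and the adjusted p was 0.0657 with only the compared groups fitted. It was higher by 1.07 in C498+LPS vs LPS (0.63 to 1.51, adjusted p = 0.0102). That call was lost without any single LPS or C498+LPS replicate, and after median centring or quantile normalization, the lowest change being 0.95. These comparisons share the LPS samples. C498 alone gave 0.56 (0.12 to 1.00, adjusted p = 0.0887), which leaving out NC replicate 1 turned to 0.77 and leaving out NC replicate 2 to 0.35, both uncalled, and LPS after C498 gave -0.53 (-0.97 to -0.09, adjusted p = 0.0981).

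Klf13 (ENSMUSG00000052040, chr7:63886351-63938915, minus strand) encodes an activator of Ccl5 in T cells. Measured levels were 28.5 and 18.6 TPM in NC, 18.4 and 15.5 in LPS, 20.2 and 20.9 in C498, and 17.9 and 13.1 in C498+LPS samples. NC replicate 1 stood above all other samples, and NC replicate 2 was below both C498 samples. Log2 differences were -0.43 in LPS vs NC, -0.16 in C498 vs NC, -0.40 in C498+LPS vs C498, and -0.13 in C498+LPS vs LPS, with limma adjusted p from 0.209 to 0.752. Leaving out NC replicate 1 gave -0.13 with LPS and 0.13 with C498, and leaving out NC replicate 2 gave -0.72 and -0.46, none of them called. Ccl5 itself was called higher with LPS, by 2.10 on the log2 scale in LPS vs NC, and by 1.34 after C498.

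**Figure D3:**
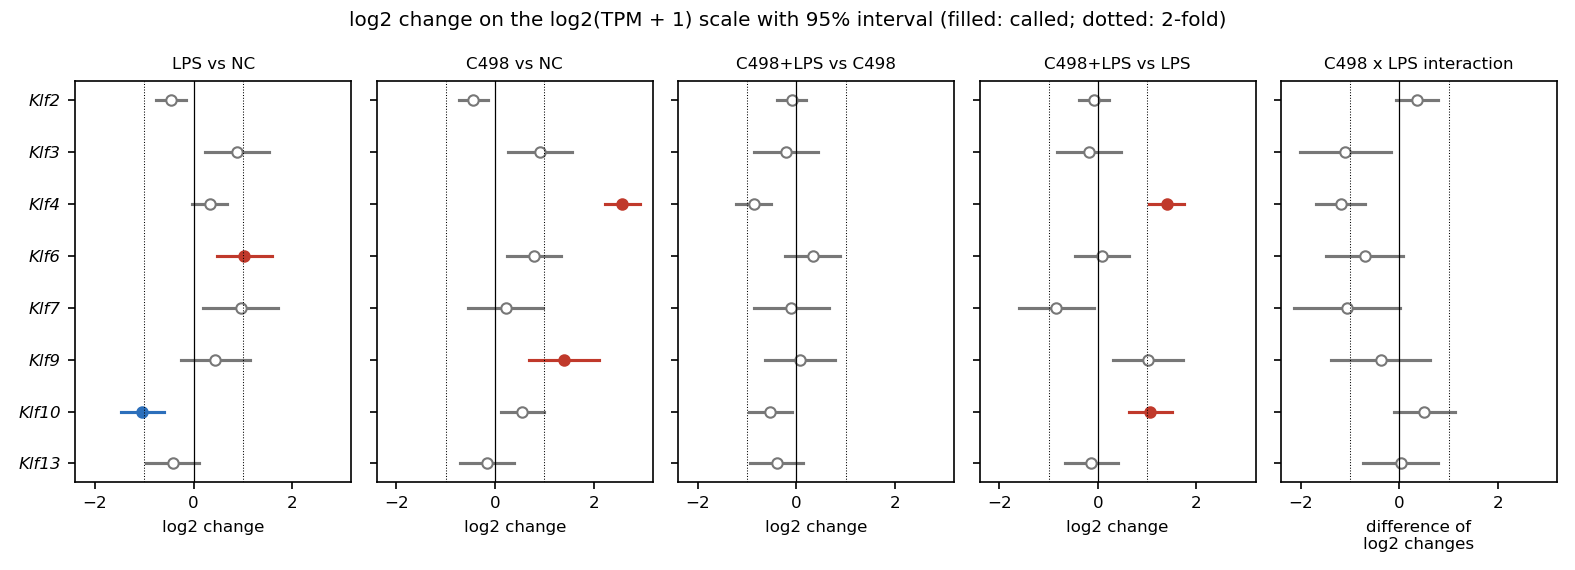
Log2 changes of the 8 Krueppel-like factors with 95% intervals in the 5 comparisons, on the log2(TPM + 1) scale; filled points passed both the 2-fold and the adjusted p criteria. Klf4 and Klf9 are filled in C498 vs NC, Klf4 and Klf10 in C498+LPS vs LPS, and Klf6 and Klf10 in LPS vs NC.

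Of the 8 members, 1 was called higher and 1 lower in LPS vs NC (background 5.55% and 6.68%), and 2 were called higher in C498 vs NC (background 5.64%). Likewise 2 were called higher in C498+LPS vs LPS (background 5.39%), and C498+LPS vs C498 had 0 calls (background 2.52% higher and 3.13% lower). For the interaction, limma called 0 members (background 0.0738% higher and 0.394% lower). Klf3 (-1.09) and Klf4 had an unadjusted p under 0.05 there, as did 1351 of the 12189 tested genes. In C498+LPS vs C498, Klf4 and Klf10 had an unadjusted p under 0.05, as did 3886 of the 12189 genes. The median log2 change of the 8 members was 0.67 in C498 vs NC, against 0.01 over all tested genes, but 0.0052 against 0.0065 in C498+LPS vs LPS. These medians were 0.38 and -0.17 in LPS vs NC, and -0.16 and -0.18 when LPS followed C498. The median of all genes was thus below 0 in both LPS comparisons, and median centring brought it to -0.00054 and 0.04.

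The order of TPM levels among the members also differed between groups. In NC samples Klf6 was followed by Klf2 and Klf13, whose samples overlapped, then by Klf3 and Klf10, which also overlapped, by Klf4, and by Klf9 and Klf7, again overlapping. In LPS samples the order was Klf6, Klf3, Klf2, Klf13 and Klf4, with neighbouring genes not overlapping, and Klf7, Klf9 and Klf10 overlapped at the bottom. In C498 samples Klf4 came second after Klf6, followed by Klf3, by Klf13 and Klf2, which overlapped, and by Klf10, Klf9 and Klf7. In C498+LPS samples Klf4 was again second. Klf3, Klf2, Klf13 and Klf9 followed with overlapping neighbours, and Klf10 and Klf7 were last. Klf6 made up 41.4% to 47.3% of the summed TPM of the 8 genes in the 4 NC and C498 samples and 57.6% to 63.5% in the 4 samples given LPS.

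Among the other Sp and KLF genes, 18 were listed, 8 were tested and 5 were at 0 in all samples. C498 vs NC called 3 of the 8 higher, namely Klf5, Klf11 and Klf16, and none lower (background 5.64% and 1.36%). Klf16, a Sin3-binding relative of Klf9 and Klf13, had 8.42 and 7.69 TPM in NC, 7.92 and 7.34 in LPS, 19.1 and 17.6 in C498, and 17.0 and 17.5 in C498+LPS samples. Samples with and without C498 did not overlap, and Klf16 rose by 1.09 in C498 vs NC (limma adjusted p = 0.00309) and was higher by 1.08 in C498+LPS vs LPS (adjusted p = 0.00279). Klf11, the closest relative of Klf10, rose by 1.18 in C498 vs NC (adjusted p = 0.0203), from 1.25 and 0.62 TPM in NC to 3.33 and 3.34 TPM in C498 samples. Klf5, an activator best known from epithelia, was at 0.17 and 0.23 TPM in NC and at 2.14 and 2.09 TPM in C498 samples, a log2 change of 1.38 (adjusted p = 0.0151). It was also higher in C498+LPS vs LPS, by 1.64 (adjusted p = 0.0068). With means of 0.20 TPM in NC and 0.47 TPM in LPS samples, Klf5 passed the filter on mean level only through the groups given C498, so its calls do not count as support. With LPS alone the only call among the 8 was Klf8, a CtBP-binding relative of Klf3, with 1.39 and 0.69 TPM in NC and 5.47 and 4.52 TPM in LPS samples, a rise of 1.57 (adjusted p = 0.00458).

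**Figure D4:**
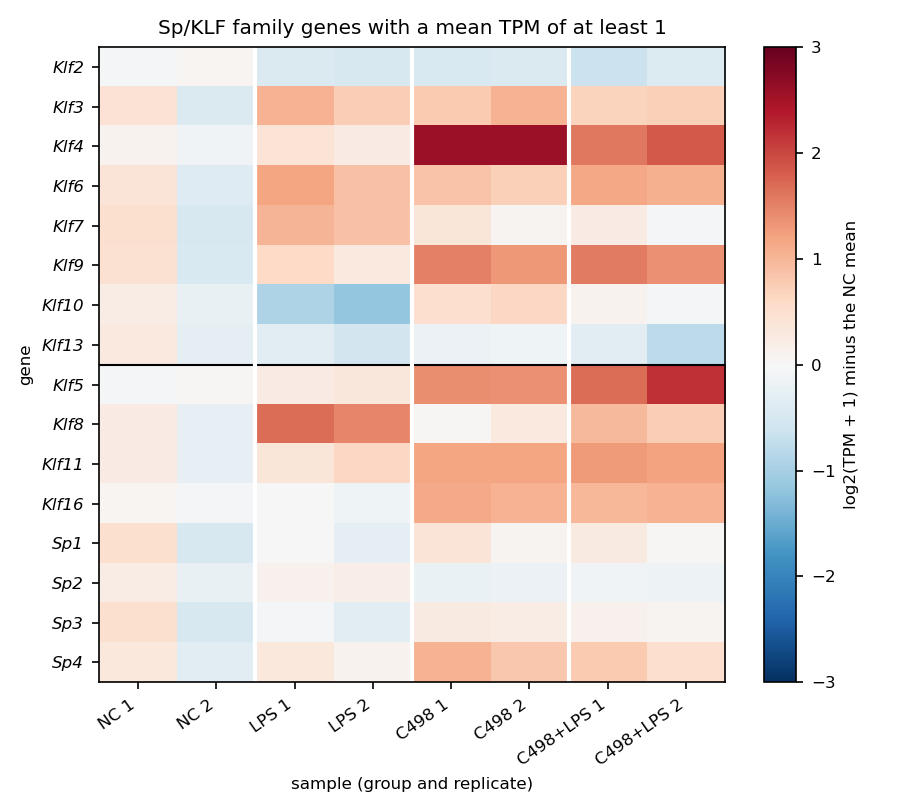
Heatmap of the 8 members (above the black line) and the 8 other tested Sp and KLF genes (below it) in each of the 8 samples; colour gives log2(TPM + 1) minus the mean of the NC samples, red for higher and blue for lower. Klf4, Klf9, Klf5, Klf11 and Klf16 are red in all 4 samples given C498, and Klf8 is darkest in the 2 LPS samples.

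Regulators and partners of the family were taken from lists of known genes. Of 14 cofactors and turnover factors tested, 1 was called in any comparison: Kat2b, an acetyltransferase, was lower in C498+LPS vs LPS (log2 change -1.03, limma adjusted p = 0.0169, background 2.18%). Of 9 genes in the MEK5-ERK5-MEF2 arm, which drives Klf2 and Klf4 in endothelium, C498 vs NC called Mef2d higher by 1.11 (adjusted p = 0.00937, background 5.64%). Mef2d had 25.9 and 20.8 TPM in NC and 49.7 and 52.7 TPM in C498 samples. LPS vs NC, with a background of 6.68% lower, called Map2k5, the MEK5 kinase, lower (-1.09, adjusted p = 0.00225) together with Hdac5, a repressor of MEF2 (-1.99, adjusted p = 0.000109). Hdac5 was also lower in C498+LPS vs C498 (-1.42).

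Of 9 tested genes known as KLF2 or KLF4 targets, C498 vs NC called 1 higher and 0 lower (background 5.64% and 1.36%). The higher one was Cdkn1a, the cell cycle inhibitor p21, by 1.95 on the log2 scale. LPS vs NC called Cdkn1a (1.41) and the RNase gene Zc3h12a (2.67) higher and the anticoagulant receptor Thbd (-2.54) and S1pr1 (-1.82) lower (background 5.55% and 6.68%). With LPS after C498, 1 of the 9 was called higher, Zc3h12a (2.11), and 1 lower (background 2.52% and 3.13%). The lower one was Arg1, with means of 23.3 TPM in C498 and 11.0 TPM in C498+LPS samples. In C498+LPS vs LPS, the median log2 change of the 9 was 0.43 against 0.01 over all tested genes. Of the 9, 3 passed the adjusted p threshold of limma higher and 0 lower, as did 1107 and 938 of the 12189 tested genes. Thbd was the only one of these also past 2-fold, where it was higher by 2.20 (limma adjusted p = 0.00265), with means of 8.88 TPM in C498+LPS and 1.08 TPM in LPS samples. Cdkn1a was the only one called in the interaction (-1.14, adjusted p = 0.019).

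The glucocorticoid response genes, to which Klf9 belongs, were called higher for 3 of 7 in C498 vs NC (background 5.64%). These were Dusp1 (4.79), Ddit4 (2.21) and Per1 (1.38), which encode a MAP kinase phosphatase, an inhibitor of mTOR signalling and a clock repressor. The same comparison did not call the other 4, which include Tsc22d3, with mean levels of 66.7 TPM in NC and 49.9 TPM in C498 samples. Of the 7 tested TGF-beta response genes, the class of Klf10, C498 vs NC called 4 higher and 1 lower (background 5.64% and 1.36%). The higher ones included Smad7 (1.39), Ccn2 (1.65) and Tgif1 (1.00), and the lower one was Tgfbi (-1.31). Ccn2 is also expressed by fibroblasts, whose markers were higher in the same samples. In LPS vs NC, where Klf10 fell, Tgfbi was called lower (-1.87). Among LPS-treated samples, where Klf10 was higher with C498, 4 of 7 TGF-beta response genes were called higher and 0 lower (background 5.39% and 2.18%). Smad7, Ccn2 and Pmepa1 were among the 4. The same comparison called Per1, Dusp1 and Ddit4 of the glucocorticoid list higher and Cebpd lower.

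The genes whose log2 levels over the 8 samples were most like those of each member were described by Pearson's r among 8860 genes with a mean of at least 5 TPM. For Klf4 these were Plk3 (0.992), Fosb (0.991) and Vps37b (0.99). Fosb, with means of 0.03 TPM in NC and 26.0 TPM in C498 samples and listed at 0 in LPS samples, passed this minimum only through the groups given C498. For Klf9 they were Sfpq (0.996), Hdlbp (0.995) and Chst11 (0.993). Klf6 was most like Vcl (0.995), Slc39a14 (0.992) and Pi4k2b (0.99). Klf10 was most like Cnih1 (0.991), Mrps9 (0.99) and Ivns1abp (0.987), and Klf2 like Psmb1 (0.987), Eif1b (0.982) and Ndufc2 (0.976). The closest to Klf3 were Ep400 (0.963), 4932438A13Rik (0.962) and Samd4b (0.962), and to Klf7 Rnf214 (0.974), Msn (0.973) and Tbk1 (0.972). Klf13 was most like Zfp971 (0.982), Dcaf7 (0.981) and Xrcc4 (0.978). Between members, r was 0.882 for Klf4 and Klf9, 0.883 for Klf3 and Klf6, and -0.91 for Klf2 and Klf6. With 4 groups of 2 samples these coefficients mainly reflect 4 group means, and all points share the libraries and their length trend.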

How the data were processed

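RNA from 8 samples (4 groups of 2, by the labels) was sequenced by the authors, whose processing notes name fastp for read filtering, HISAT2 for alignment, StringTie for assembly and RSEM for quantification. Genome build, annotation and tool versions are not given in the sources used here. The authors deposited TPM values per gene, with group means and gene length in a table of 26 columns; the means and annotation columns were not used. TPM keeps no sequencing depth, so read depth is unknown and counting error is known only through replicates. Replicate columns named NC were matched to the samples titled as controls.

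Tests used limma 3.58.1 in R 4.3.3 on log2(TPM + 1) of 12189 genes, all those averaging 1 TPM or more, in a fit of 4 group means to the 8 samples with a variance trend. Adjusted p are Benjamini-Hochberg values over all tested genes within a comparison. A call needed a 2-fold change or more together with an adjusted p no higher than 0.05. A permutation test of 2 samples against 2 cannot go below 0.333. On simulated data of 12189 genes for LPS vs NC, 93.5% of 200 changed genes were recovered, with 8 false calls. Recovery at the sizes of change seen in the members was not tested separately. Each alternative changed 1 choice (pseudocount 0.1, filters, scaling, groups fitted, variance trend, replicate block, fold threshold, samples left out); centring in 20 bins of gene length was added after seeing the data. Gene positions are from GENCODE M21 on GRCm38 and promoters from RefSeq (GRCm38.p6), matched by identifier or symbol.

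The members and gene lists were chosen with earlier results of these data known. Named are the 8 members, list genes called in a comparison (some are not reported here), and the 3 tested genes most like each member. Python 3.11.15 with pandas 2.3.3 and matplotlib 3.10.9 was used for summaries.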

Additional observations from a re-analysis of the deposited data

Results flagged for a closer look

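The differences made by LPS had opposite signs with and without C498 for Klf3 and Klf4: in both, every LPS sample lay above every NC sample and every C498+LPS sample below every C498 sample. The share of all tested genes with this pattern was not counted, so the pattern has no background beside it. For Klf3 the NC samples stood at 16.6 and 8.54 TPM, farther apart than the replicates of its other groups. The interaction was -1.09 for Klf3 (limma adjusted p = 0.382) and -1.19 for Klf4 (adjusted p = 0.0826), and thus the difference did not pass the adjusted threshold for either gene. LPS vs NC was uncalled for both genes, as was C498+LPS vs C498, and for Klf3 the latter went from -0.21 to 0.0032 after median centring.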

How the results depend on the processing

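Of the 6 called changes, none changed direction in 102 recomputed values, and 27 of these values lost the call, none of them for Klf4. Without the filter, 0 members were called higher in LPS vs NC and 1 in C498 vs NC. Median centring called 3 higher and 0 lower in LPS vs NC and 1 higher in C498+LPS vs LPS, and quantile normalization 2, 0 and 1, with 1 lower in the interaction. Fitting only the compared groups gave 0 higher and 0 lower in LPS vs NC and 1 higher in C498 vs NC. With no fold threshold, 2 were lower in LPS vs NC and 1 was lower in C498+LPS vs C498. Centring by length gave 2 higher and 0 lower in LPS vs NC, 1 lower in C498+LPS vs LPS and 1 lower in the interaction.

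Leaving out 1 sample, the counts ranged from 0 to 3 higher and 0 to 1 lower in LPS vs NC, 1 to 4 higher in C498 vs NC, and 1 to 3 higher in C498+LPS vs LPS. Over all genes the same settings gave 514 to 931, 628 to 1078, 274 to 1186 and 300 to 677 calls. Changes that reversed were not called. In C498+LPS vs C498, centring gave 0.12 for Klf2, 0.0032 for Klf3 and 0.11 for Klf7, quantile normalization 0.091 for Klf2 and 0.10 for Klf7, and centring by length 0.11 and 0.16; the last gave -0.24 for Klf7 in C498 vs NC. Leave-one-out ranges that crossed 0 were -0.024 to 0.91 for Klf9 in LPS vs NC, -0.27 to 0.70 for Klf7 and -0.46 to 0.13 for Klf13 in C498 vs NC. In C498+LPS vs C498 they were -0.22 to 0.020 for Klf2, -0.24 to 0.039 for Klf7 and -0.041 to 0.17 for Klf9. In C498+LPS vs LPS they were -0.19 to 0.044 for Klf2, -0.071 to 0.24 for Klf6 and -0.35 to 0.080 for Klf13, and in the interaction -0.84 to 0.090 for Klf9 and -0.27 to 0.32 for Klf13. The cause was not tested.

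Over all genes, centring changed the calls from 677 higher and 814 lower to 853 and 530 in LPS vs NC, from 687 and 166 to 565 and 269 in C498 vs NC, and from 307 and 381 to 434 and 196 in C498+LPS vs C498. A mean TPM of at least 5 left out Klf7. Replicate numbers were not shown to pair the samples (correlation of same-numbered deviations 0.04 to 0.168, with only 2 numbers). With the replicate block, Klf9 was also called in C498+LPS vs LPS (1.02, limma adjusted p = 0.0199). TPM gives no depth, so low levels such as those of Klf7 have no counting interval.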
